A study of Mus musculus with 24 samples.

Results

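The genes described here are Smchd1, the gene deleted in the study, its binding partner Lrif1, and the 6 genes for the core SMC proteins that mouse somatic cells share, Smc1a, Smc2, Smc3, Smc4, Smc5 and Smc6. They were chosen by name, as the 8 of 35591 genes in the count table that carry these symbols. RNA was measured by poly(A) RNA-seq in male mouse embryonic stem cell (mESC) lines as they differentiated towards neuromesodermal progenitors (NMPs), the cells that feed both the spinal cord and the trunk mesoderm. There were 24 libraries, from 3 wt and 3 het lines on day 0, day 2, day 2.5 and day 3. Wt lines were Smchd1[fl/+], with a floxed allele, and het lines were Smchd1[del/+], with a deleted allele. All lines came from Castaneus mothers with intact Smchd1 and C57BL/6 fathers that carried a deleted allele, a floxed allele and the MMTV-Cre transgene, so the altered allele was the paternal C57BL/6 one and the oocyte supplied SMCHD1 to every line. Each line was derived from its own blastocyst. Day 0 cells were kept with LIF, and a Wnt activator (CHIR99021) was present from day 2 onwards. Whether a line inherited the Cre transgene, and its passage number, are not given in the sources used here.

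SMC proteins are long ATPases that fold back at a hinge and pair up, and the resulting ring-shaped complexes hold or move along DNA. SMC1A with SMC3 forms the core of cohesin, which holds sister chromatids together and extrudes chromatin loops. SMC2 with SMC4 forms the core of both condensins, which compact chromosomes for division, and SMC5 with SMC6 forms a complex that acts in DNA repair and replication. SMCHD1 is a noncanonical member, with an SMC-type hinge but an ATPase domain of another family, and it is known for gene silencing on the inactive X chromosome, at imprinted clusters and at Hox genes. LRIF1 binds both SMCHD1 and the heterochromatin protein HP1.

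The genes lie on 6 chromosomes of the GRCm38 assembly. Smchd1 (ENSMUSG00000024054) is at chr17:71344489-71475343 on the minus strand, and Lrif1 (ENSMUSG00000056260) at chr3:106684987-106736577. The cohesin pair is Smc1a (ENSMUSG00000041133), on the X chromosome at chrX:152016428-152062694 and so present as a single copy in male cells, and Smc3 (ENSMUSG00000024974) at chr19:53600398-53645833. The condensin pair is Smc2 (ENSMUSG00000028312) at chr4:52439243-52488260 and Smc4 (ENSMUSG00000034349) at chr3:69004738-69034623. The last pair is Smc5 (ENSMUSG00000024943) at chr19:23206451-23273897, on the minus strand, and Smc6 (ENSMUSG00000020608) at chr12:11265886-11319785. Their values are read counts over whole genes. In 6 of the genes, no 75-base stretch of the longest transcript occurred in an annotated transcript of another gene. In Smc3 99.62% and in Lrif1 78.77% of the stretches were free of such matches. Exon bases outside the longest transcript were not searched. Lrif1 shares 1064 exon bases on the same strand with Gm38253, an annotated transcript that still awaits experimental evidence, and its counts are less certain for that reason.

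The 250 bases before the start of a gene hold much of a promoter. Smchd1 is shown because it is the gene that was deleted, and Smc2 as an example of a window with 3 of the 5 short motifs that were searched, as 1 of the windows of Lrif1 also had. Both are from the RefSeq annotation of GRCm38.p6, 5′ to 3′ on the strand of the gene, at chr17:71475344-71475593 on the minus strand and chr4:52438971-52439220 on the plus strand. Capitals mark the motif matches.
Smchd1: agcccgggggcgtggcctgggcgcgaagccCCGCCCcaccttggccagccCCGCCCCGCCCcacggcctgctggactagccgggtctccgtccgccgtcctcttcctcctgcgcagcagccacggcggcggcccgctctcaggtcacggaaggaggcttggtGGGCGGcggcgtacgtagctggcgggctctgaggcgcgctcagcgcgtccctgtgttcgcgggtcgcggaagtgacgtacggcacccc
Smc2: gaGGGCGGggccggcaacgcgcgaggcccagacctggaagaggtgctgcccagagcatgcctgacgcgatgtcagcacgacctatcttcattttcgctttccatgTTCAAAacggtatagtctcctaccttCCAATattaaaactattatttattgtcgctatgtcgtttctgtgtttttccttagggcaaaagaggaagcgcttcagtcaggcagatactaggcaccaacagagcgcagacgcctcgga

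In the Smchd1 window all capitals are GC boxes, with 4 matches to GGGCGG or its complement, 2 of them overlapping by a base, in a sequence of 75.6% GC. In the Smc2 window, of 51.6% GC, the capitals are in order a GC box, a match to TTTGAA on the opposite strand (the CHR element known from cell cycle genes) and a CCAAT box. Motifs were searched as plain letters on both strands in 8 windows of 7 of the genes (Lrif1 has 2 starts). The GC box GGGCGG was in 6 of the 8 windows, against 32.7% of all 32851 windows. CCAAT was in 3 (Lrif1, Smc1a and Smc2, against 33.8%), TTTGAA in 2 (Smc2 and Smc6, against 16%) and the ETS motif CCGGAAGT in 1 (Lrif1, against 2.88%). TATAAA was in none of them, against 12.4% of all windows. These are matches of letters and not binding sites. The Smc4 window was not analysed here.

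Libraries held 7.10 to 20.8 M counts, with a median of 17.9 M, and the smallest was wt day 2.5 line 2. Each of the 8 genes had at least 231 counts in each library, the lowest being Lrif1 in that library. Pearson's r of log2 levels within groups was 0.945 to 0.979 over 24 pairs, and no libraries were identical. The labelled course was visible in its markers. The 5 naive pluripotency genes fell by day 2 in both genotypes (median log2 fold change -3.12 in wt and -3.04 in het), and the 4 NMP genes T, Nkx1-2, Cdx2 and Sp5 rose from day 2 to day 2.5, with a summed level of 1.69 to 5.78 CPM (counts per M counts, scaled by edgeR's TMM factors) in the day 2 libraries and 478 to 948 CPM in those of day 2.5. Wt line 1 stood apart in its chromosome 8 genes, at a median of 0.19 above the mean of all lines on the log2 scale. The other lines were at -0.07 to 0.03, and none of the 8 genes lies there.

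The comparison of het with wt on each day asked how far Smchd1 RNA fell when the paternal allele was deleted. Smchd1 was lower in each het library than in each wt library of the same day, on all 4 days. On day 0 the wt lines 1 to 3 held 131, 147 and 149 CPM, and the het lines held 101, 89.4 and 92.8. On day 2 the levels were 187, 217 and 195 in wt and 115, 120 and 124 in het. No value of a het line reached the lowest wt value of its day, and the difference in CPM was wider on day 2. On day 2.5 the wt lines held 124, 134 and 154 CPM, against 93.3, 87.3 and 91.3 in the het lines. On day 3 they held 167, 207 and 207, against 107, 106 and 104. The het lines were close to each other on that day and the wt lines spread more, with line 1 the lowest.

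As a share of the wt mean, Smchd1 in het was 66.3% ± 4.22 on day 0, 59.9% ± 2.35 on day 2, 66.0% ± 2.25 on day 2.5 and 54.7% ± 0.946 on day 3 (SD over 3 het lines, as are the following). Averaged over the days of each line it was 61.0% ± 1.03. An exact two-sided permutation test over lines gave p = 0.1 on each day, the smallest that 3 against 3 allows.

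In the edgeR quasi-likelihood fits across all genes, Smchd1 was called lower in het (Benjamini-Hochberg adjusted p under 0.05) on day 2, at -0.75 on the log2 scale (95% interval -0.95 to -0.55, adjusted p = 0.00824). It was called again on day 3, at -0.88 (-1.10 to -0.67, adjusted p = 0.0307). It had the smallest p of all genes on both days. At day 0 it also ranked 1, at -0.61 (-0.79 to -0.43), but its adjusted p in edgeR was 0.10. At day 2.5 it ranked 2, at -0.60 (-0.84 to -0.35, adjusted p = 0.907 in edgeR). By DESeq2 it was called on those days too, with adjusted p of 1.33e-07 and 0.0393. With the counts of the 4 days summed per line, which gives a single value per line, the difference was -0.76 (-0.91 to -0.61, edgeR adjusted p = 0.00556).

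Smchd1 was the only called gene of the 8 in these comparisons. The background of calls over all genes tested was 0% on day 0, 0.551% on day 2 (8 genes higher and 77 lower), 0% on day 2.5, 0.00638% on day 3 and 0.00544% with counts summed per line. On day 3 and in the summed counts, Smchd1 was therefore the single gene that edgeR called, of 15686 and 18371. DESeq2 called 116 and 145 genes there, and edgeR without wt line 1 called 93 and 404. At an unadjusted p under 0.05 there were 1649 genes on day 0 and 822 on day 2.5, and DESeq2 called 82 and 3 genes on those days.

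A log2 fold change of -1 would be 50% of wt. That is the level if both alleles gave equal counts in wt, the deleted allele gave none and the other allele were as in wt. The 95% interval of Smchd1 lay above it on day 0, day 2 and day 2.5 and in the summed counts (53.2% to 65.6% of wt), and held it on day 3 (46.7% to 63.1%). The intact allele of the het lines was the Castaneus one, the reads were aligned to the C57BL/6 reference, and counts by allele were not analysed here. The deletion is named as exon 4 for the maternal deletion lines of the study and not separately for these lines. Gene counts cover all exon blocks of Smchd1, 48 in the annotation, so RNA made from a deleted allele that lacks a single exon would still be counted, and the percentages are of total Smchd1 RNA rather than of intact transcripts. With an offset for GC content and transcript length, chosen after seeing the data, the differences were -0.78, -0.77, -0.74 and -0.89 by day, each called (edgeR adjusted p from 0.00182 to 0.0455), and the day 0 and day 2.5 values moved towards those of the other days.

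The calls depended on single lines while the direction did not. Over 64 alternative settings the log2 difference ran from -0.98 to -0.50. On day 2 the call was lost without any of the het lines 1, 2 or 3 (edgeR adjusted p 0.0740, 0.0618 and 0.0578). On day 3 it was lost without wt line 2 or 3 (0.191 and 0.190) or het line 1 or 3 (0.133 and 0.444), and in the summed counts without wt line 3 or het line 2 or 3 (0.0511, 0.0533 and 0.105). On day 0 it was gained without wt line 1 (0.00135) or 2 (0.0317).

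**Figure D1:**
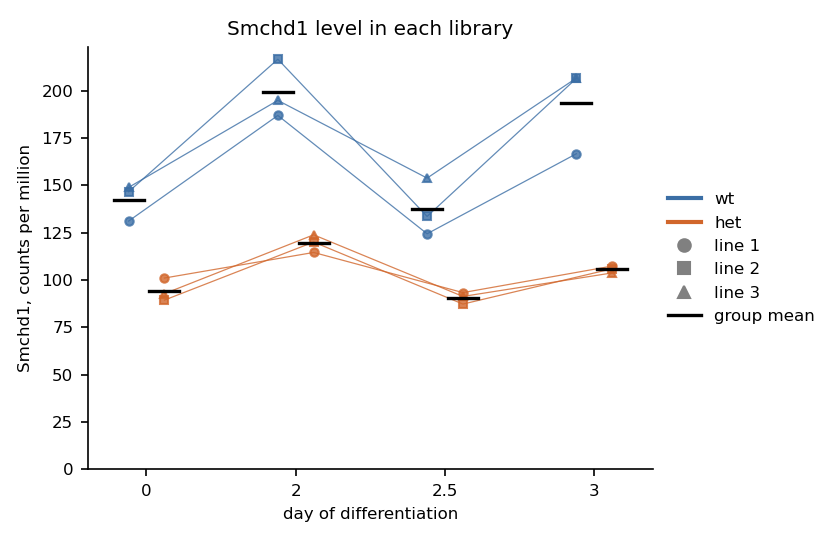
Smchd1 level in CPM (TMM-scaled, linear axis from 0) by day, with a point for each wt (blue) and het (orange) library, a marker shape for each line, thin lines joining the days of a line and black bars for the group means. All het points lie under all wt points of the same day, with the widest gap between the means on day 3 (193 against 106 CPM).

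Markers of endoderm, a cell type that mESC cultures can hold, moved with the genotype. All 12 genes of the list (Sox17, Gata6, Gata4, Foxa2, Sox7, Dab2, Pdgfra, Lama1, Col4a1, Col4a2, Cubn and Amn) were lower in het on each day. On day 2, 10 of the 12 were called by edgeR, at a list median of -1.05, and Gata6 (adjusted p = 0.0509) and Foxa2 (0.362) were not, beside 0.551% of all genes tested. Without het line 1, 2 or 3, the genes called on day 2 were 1, 3 and 0 over all genes, so most or all of the 10 calls were lost. The list medians on day 0, day 2.5 and day 3 were -0.95, -0.48 and -0.74, beside medians of -0.00130, -0.00528 and -0.000526 over all genes tested. The summed level of the list was 5222 to 10502 CPM in wt and 3039 to 4260 CPM in het on day 2, and on day 0 it was 1518 to 2691 and 731 to 1169 CPM, without overlap on either day. On day 2.5 those ranges overlapped, at 4115 to 10347 CPM in wt and 4096 to 6046 CPM in het, and so did those of day 3, at 3901 to 7728 and 2803 to 4701 CPM. None of the 12 was at 0 in any group. On day 3 the 3 epiblast genes had a median of 0.89 in het against wt, all higher and none called by edgeR, with a summed level of 139 to 184 CPM in wt and 179 to 252 CPM in het. The 2 general pluripotency genes had a median of 0.30 on that day, with neither called. The part of these markers in the Smchd1 difference was not tested. In bulk RNA, fewer cells of a type and less RNA per cell cannot be told apart.

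None of the other 7 genes was called between genotypes on any day, by edgeR or by DESeq2. The intervals of the summed counts limit how large a lasting difference could be. For Smc3 the log2 difference was 0.02 (95% interval -0.08 to 0.12), for Smc2 0.01 (-0.14 to 0.15), for Smc4 0.02 (-0.09 to 0.13), for Smc5 -0.06 (-0.19 to 0.06) and for Smc6 -0.04 (-0.19 to 0.10). These 5 intervals include 0 and leave out any change as large as that of Smchd1. With the GC and length offset Smc5 was at -0.19 (-0.33 to -0.06) and Smc6 at -0.14 (-0.28 to -0.0038), intervals that leave out 0, though neither was called by edgeR (adjusted p of 0.411 and 0.521). For Smc1a the interval was -0.23 to -0.01 around -0.12, with an edgeR adjusted p of 0.520. For Lrif1, the least abundant of the 8, it was the widest, at 0.24 (-0.03 to 0.51, edgeR adjusted p = 0.602). Leaving out 1 line gave values of 0.12 to 0.37 for Lrif1.

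Lrif1, the gene for the partner of SMCHD1, had its highest mean level relative to wt on day 0. The wt lines held 20.3, 29.8 and 24.1 CPM and the het lines 34.4, 29.0 and 36.9. The groups overlapped through wt line 2 and het line 2, and het was at 135% ± 16.2 of wt. On day 2.5 the groups did not overlap, at 25.3, 31.9 and 32.6 CPM in wt and 33.1, 34.4 and 37.8 in het, or 117% ± 8.09 of wt. Groups without overlap give p = 0.1 in the exact permutation test of 3 against 3 lines, here and for the genes below. The share of all genes without overlap was not computed. The day 0 difference was 0.42 on the log2 scale (0.09 to 0.75, edgeR adjusted p = 0.385), and with the GC and length offset it was 0.12. With that offset the day 2.5 difference turned to -0.13 (91.3% of wt) and the summed one to -0.01.

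Smc1a, the cohesin gene on the X chromosome, was lower in het in mean level on the later days. On day 2.5 the wt lines held 221, 218 and 222 CPM and the het lines 181, 174 and 209, without overlap. On day 3 the wt lines held 268, 248 and 243 CPM and the het lines 248, 208 and 205, which overlapped through het line 1. Het was at 85.6% ± 8.43 and 87.2% ± 9.61 of wt on those days, with edgeR adjusted p of 0.907 and 0.522.

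Smc3, the other cohesin ATPase, had nearly the same level in all het lines on day 2, at 423, 424 and 426 CPM, each above the wt values of 416, 351 and 369. That put het at 112% ± 0.361 of wt (edgeR adjusted p = 0.575). On day 0 the groups did not overlap for the condensin genes. Smc2 was at 274, 327 and 322 CPM in wt and 364, 353 and 362 in het (117% ± 2.00 of wt, edgeR adjusted p = 0.369). Smc4 was at 363, 408 and 396 CPM in wt and 444, 432 and 431 in het (112% ± 1.96, edgeR adjusted p = 0.422). In both, wt line 1 was the lowest library. Long, GC-poor genes as a class (the longest 25% that are also among the 25% poorest in GC) had a median of 0.16 in het against wt on day 0, and with the GC and length offset Smc2 and Smc4 were at 0.00 and -0.05 on that day.

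Smc5 was higher in het on day 2.5 and lower on day 3 as measured. On day 2.5 het (121, 129 and 121 CPM) lay above wt (99.7, 111 and 119), at 113% ± 4.16 of wt, and on day 3 het (162, 151 and 151 CPM) lay under wt (168, 196 and 180), at 85.4% ± 3.29. Neither difference was called by edgeR (adjusted p of 0.908 and 0.455). With the GC and length offset the day 2.5 difference turned, to -0.04 on the log2 scale (97.1% of wt), and Smc5 was then lower in het on all 4 days, at -0.07, -0.18, -0.04 and -0.28, with no call. Smc6, its partner in the complex, had overlapping groups on all days, with 1 het line at 329 CPM on day 3 and the others at 202 and 239. A difference in the means that does not pass the test does not show that the levels were alike.

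**Figure D2:**
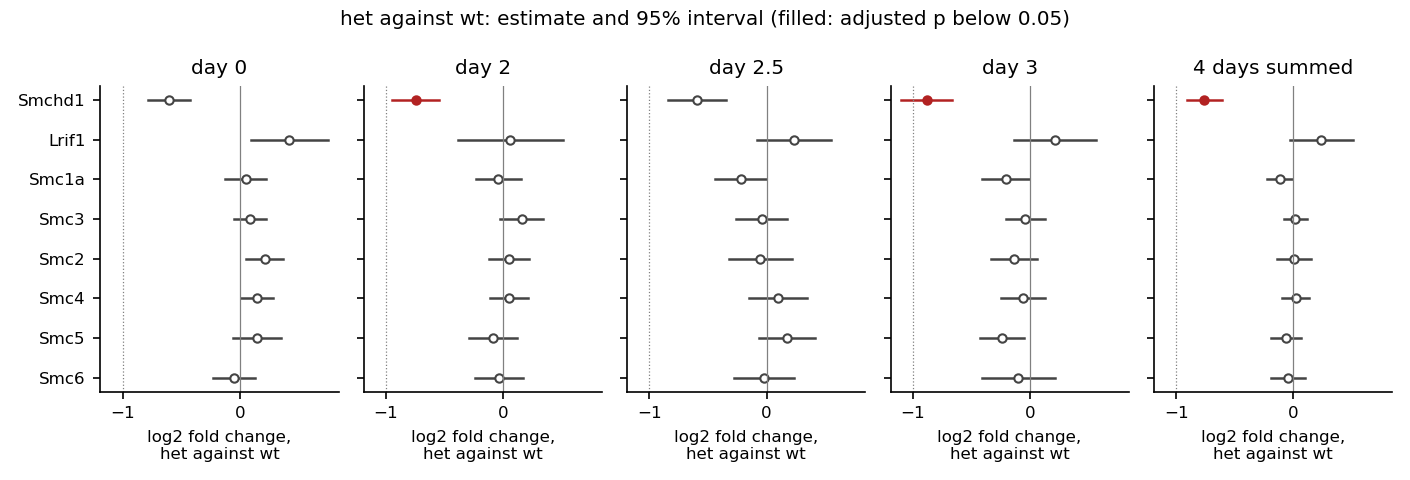
Log2 fold change of het against wt for the 8 genes on each day and for the 4 days summed per line, as points with 95% intervals from the edgeR fits (filled red where the adjusted p was under 0.05). The solid line marks 0 and the dotted line -1, and only Smchd1 has intervals under 0 in all 5 panels, with values from -0.88 to -0.60.

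**Figure D3:**
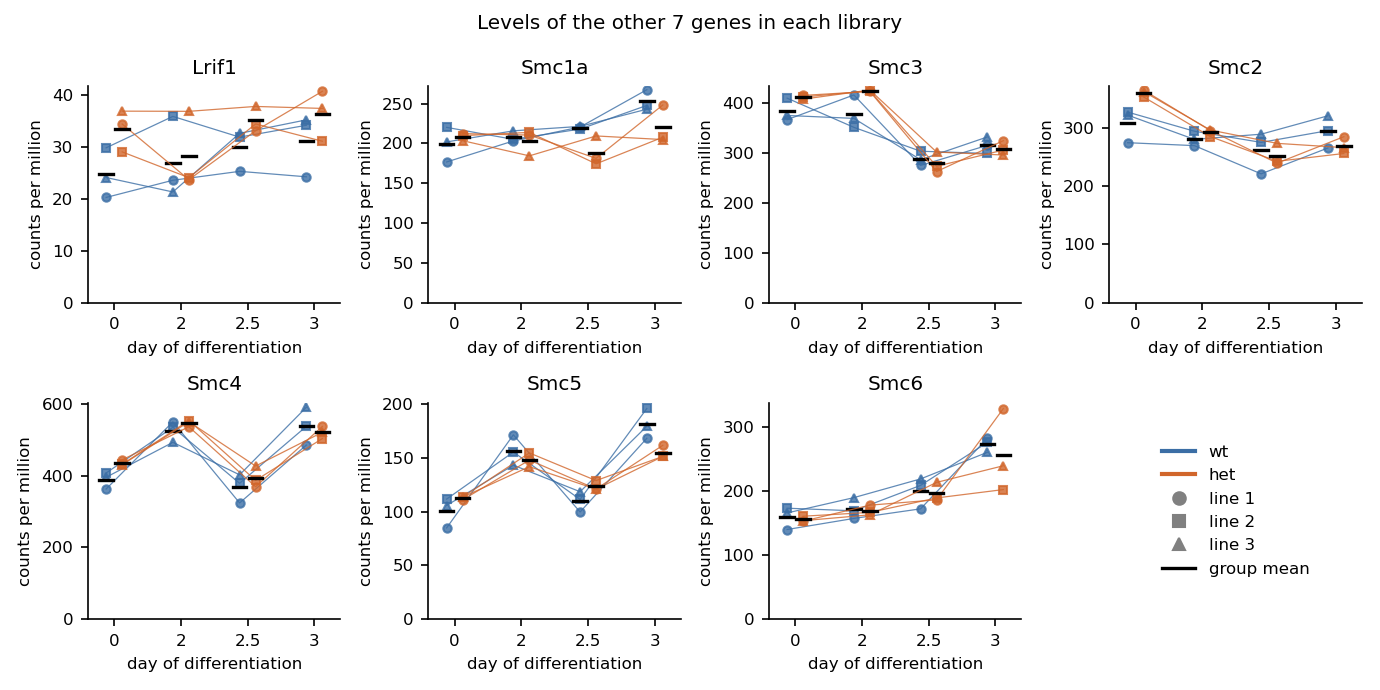
Level in CPM (linear axes from 0, a scale for each panel) of the other 7 genes by day, with a point for each wt (blue) and het (orange) library, a marker shape for each line, thin lines joining the days of a line and black bars for the group means. Smc4 and Smc5 are higher on day 2 and day 3 than on the other days in both genotypes, and Smc3 is lower from day 2.5 on.

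The comparisons of successive days asked how the levels moved through differentiation. Smchd1, Smc4 and Smc5 shared a course in wt cells, higher on day 2 and day 3 than on day 0 and day 2.5. Within a genotype a line number names the same line on each day, and in all 3 wt and all 3 het lines each of these genes was higher on day 2 than on day 0, lower on day 2.5 and higher again on day 3. Adjacent steps share the libraries of a day, so they are not independent. The counts of calls stand beside a large background, because much of the transcriptome changed at each step.

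From day 0 to day 2, 44.3% of all genes tested in wt and 56.1% in het were called by edgeR. Of the 8 genes, 3 rose in wt and none fell, and in het 3 rose and 1 fell. Smc5 rose from 84.9, 112 and 106 CPM in wt lines 1 to 3 to 172, 156 and 143. Line 1 had the largest change, and without it the log2 change in wt was 0.47. In het it went from 111, 114 and 113 CPM to 148, 155 and 142. No library of day 2 overlapped those of day 0 in either genotype, and the log2 changes were 0.64 in wt (edgeR adjusted p = 0.000670) and 0.41 in het (0.000119).

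Smc4, the condensin ATPase, rose over the same step, by 0.44 in wt (edgeR adjusted p = 0.00138) and 0.34 in het (3.15e-05). Its wt lines reached 551, 535 and 493 CPM on day 2, and its het lines 537, 554 and 551. Smchd1 rose by 0.50 in wt (edgeR adjusted p = 0.00140) and by 0.35 in het (0.00103). With the GC and length offset neither rise was called, at 0.15 in wt and 0.17 in het. Smc2, which pairs with SMC4 at the protein level, did not follow it. It fell in het by 0.29 on the log2 scale (edgeR adjusted p = 0.000271), from 364, 353 and 362 CPM to 295, 285 and 296, and was at -0.12 in wt (0.340). With the GC and length offset it was called lower in wt too, at -0.43 in both genotypes.

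From day 2 to day 2.5, the step that began with Wnt activation, 29.1% of genes tested in wt and 44.7% in het were called by edgeR. Of the 8 genes, edgeR called 4 lower in wt and 5 in het, and none higher. Smc6 was higher on day 2.5 in all 3 lines of each genotype, at 0.21 in wt (edgeR adjusted p = 0.225) and 0.19 in het (0.0671), and DESeq2 called it in het. Smc3 fell in both, from 416, 351 and 369 CPM to 275, 303 and 286 in wt and from 423, 424 and 426 CPM to 263, 273 and 302 in het. The day 2.5 libraries were all under the day 2 libraries, and the log2 changes were -0.40 in wt (edgeR adjusted p = 0.0147) and -0.63 in het (1.58e-05). Its cohesin partner Smc1a was not called in either genotype, with wt values of 203, 205 and 216 CPM on day 2 and 221, 218 and 222 CPM on day 2.5.

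At this step Smc4 fell to 324, 379 and 403 CPM in wt and 370, 387 and 427 in het, with log2 changes of -0.52 and -0.49 (edgeR adjusted p of 0.00415 and 0.000117). Smc5 fell too, at -0.52 in wt (0.00679) and -0.28 in het (0.0122). Smchd1 fell as well, at -0.54 in wt (0.00474) and -0.42 in het (0.000916), and the means on day 2.5 were 137 and 90.6 CPM beside 142 and 94.4 CPM on day 0. Smc2 fell in het, at -0.24 (0.0212), and was at -0.11 in wt (0.541).

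From day 2.5 to day 3, 19.1% of genes tested in wt and 29.8% in het were called by edgeR. In wt 4 of the 8 genes rose, and in het 2, and none fell. Smc5 rose in wt to 168, 196 and 180 CPM, by 0.73 (edgeR adjusted p = 0.00260), and in het by 0.30 (0.0132). Smc4 rose in wt to 486, 538 and 591 CPM, by 0.55 (0.00950), and in het to 538, 504 and 521 CPM, by 0.38 (0.00460).

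Smchd1 and Smc6 rose at this step in wt. Smchd1 changed by 0.50 in wt (edgeR adjusted p = 0.0200) and by 0.20 in het (0.0691). Smc6 went from 172, 209 and 219 CPM to 282, 276 and 260 in wt, by 0.45 (0.0193). In het it went from 186, 189 and 213 CPM to 329, 202 and 239, by 0.36 (0.0774), and line 1 held most of the difference. The fit that blocks on the line called the same 4 genes in wt and the same 2 in het, while its count over all genes at the wt step was 4687 in place of 2923.

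With all lines in the edgeR fit and without the GC and length offset, Lrif1 and Smc1a were called at none of the 6 steps. With that offset Lrif1 was called at some of them, as given below. Lrif1 stayed between 20.3 and 40.7 CPM in all libraries, and Smc1a between 174 and 268 CPM.

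**Figure D4:**
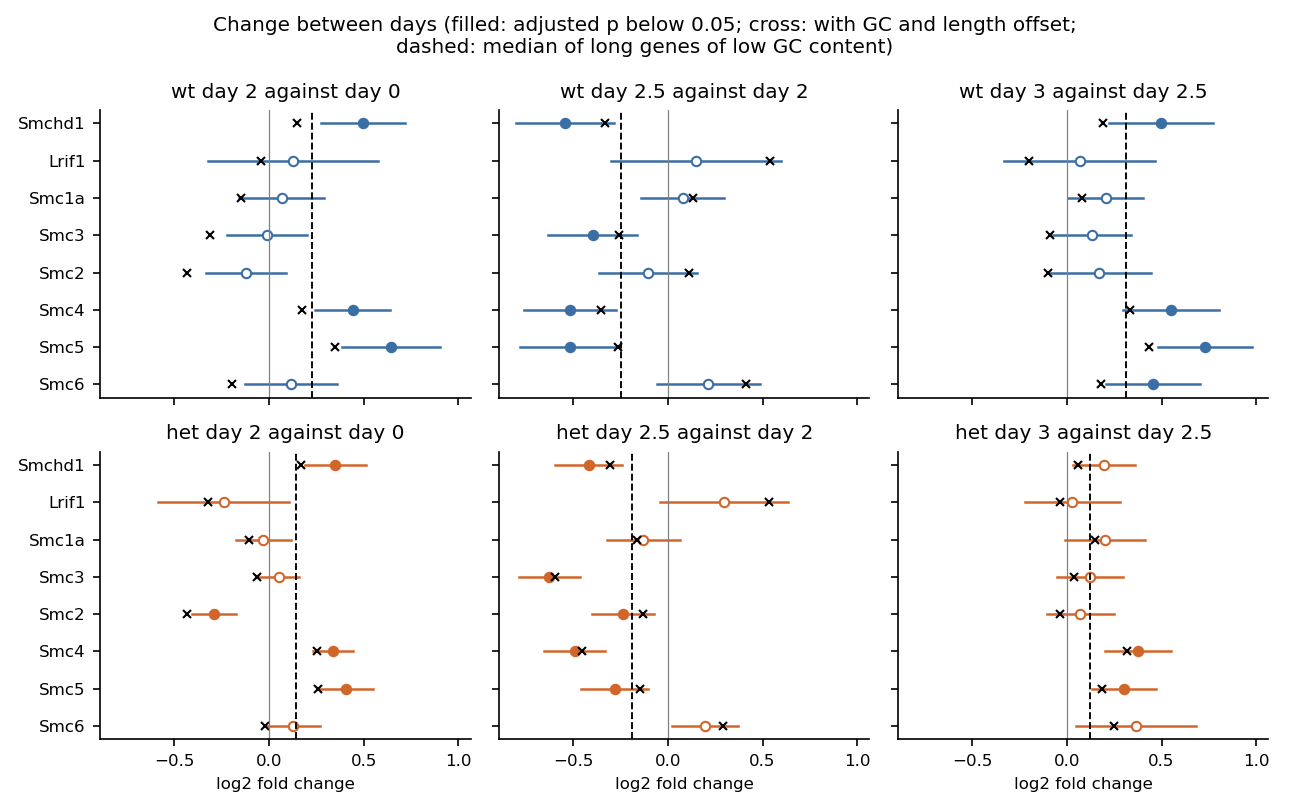
Log2 fold change of the 8 genes at the 3 steps between days, in wt (upper panels) and het (lower panels), as points with 95% intervals from the edgeR fits (filled where the adjusted p was under 0.05), with a solid line at 0. Crosses give the value with the GC and length offset and dashed lines the median of long genes of low GC content, and the crosses of Smchd1, Smc4 and Smc5 lie nearer to 0 than their points in all 6 panels.

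Long, GC-poor genes moved as a class with these steps, and all 8 genes are of that kind or near it (33.4% to 46.9% GC in the longest transcript of 4316 to 7052 bases). For that class, the median log2 change was 0.23, -0.25 and 0.31 at the 3 wt steps and 0.14, -0.19 and 0.12 at the het steps. With an offset for GC content and length, chosen after seeing the data, Smc5 was still called higher on day 2 in both genotypes, at 0.35 in wt (edgeR adjusted p = 0.0156) and 0.26 in het (0.0113). Smc4 was still called at 5 of the 6 steps, but in wt on day 2 it was at 0.17 (0.137). Smchd1 was still called lower on day 2.5, at -0.33 in wt (0.0254) and -0.31 in het (0.00944), while its changes to day 2 were 0.15 in wt (0.225) and 0.17 in het (0.0700), and its change to day 3 in wt was 0.19 (0.217).

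The offset also ended the calls of Smc3 (-0.26, edgeR adjusted p = 0.104) and Smc5 (-0.27, 0.0968) at the wt step to day 2.5, of Smc6 (0.18, 0.205) at the wt step to day 3, and of Smc5 in het at the steps to day 2.5 (-0.15, 0.218) and day 3 (0.19, 0.101). The call of Smc2 in het at the step to day 2.5 was lost too, at -0.13. It added calls in turn. Smc2 was called lower on day 2 in wt, at -0.43 (0.00151), where it had been called in het alone, and Smc3 in wt, at -0.31 (0.0290). The change of Smc2 in het was -0.43 (6.41e-06). Smc6 was higher on day 2.5 in wt (0.41, 0.0202) and het (0.29, 0.0113), as was Lrif1 (0.54, 0.0219, and 0.53, 0.00530), and Lrif1 was lower on day 2 in het (-0.32, 0.0479).

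Some of these calls were lost when a line was left out. Without wt line 2, whose day 2.5 library was the shallowest, Smchd1 (-0.46), Smc4 (-0.53) and Smc5 (-0.54) were no longer called at the wt step to day 2.5 (edgeR adjusted p 0.0868, 0.0537 and 0.0665), nor were the 4 genes of the step to day 3 (0.0905 to 0.236). The changes of those 4 genes were then 0.42 (Smchd1), 0.56 (Smc4), 0.67 (Smc5) and 0.47 (Smc6). Without wt line 3, Smchd1, Smc4 and Smc6 were not called at the step to day 3 (0.0745, 0.0579 and 0.0580), although their changes were no smaller, at 0.54, 0.55 and 0.56, and without wt line 1 or 3 Smc3 was not at the step to day 2.5 (0.0790 and 0.0898). Without het line 1 or 2, the het calls of Smc5 (0.134 and 0.0634) and Smc2 (0.251 and 0.121) at the step to day 2.5 were lost. At the het step to day 3, those of Smc4 (0.0541) and Smc5 (0.0904) were lost without het line 1, and that of Smc5 (0.0667) without het line 3. In turn, Lrif1 was called without het line 3 at the steps to day 2 (-0.40, 0.0427) and day 2.5 (0.49, 0.0152). So were Smc1a without het line 3 at the step to day 2.5 (-0.26, 0.0211) and Smc6 without het line 2 at the step to day 3 (0.49, 0.0475). The calls at the steps to day 2 in the full data were kept without any of the lines.

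Whether a step differed between genotypes was tested as the interaction in a fit of all 24 libraries. None of the 8 genes, and 0% of the 17543 genes tested, was called by edgeR at any of the 3 steps, with 1150, 1159 and 667 genes at an unadjusted p under 0.05 and 2, 1 and 0 genes called by DESeq2. For Smchd1 the step in het minus that in wt was -0.15, 0.14 and -0.27 on the log2 scale, the last with an interval of -0.55 to 0.00. For Smc5 it was -0.40 (-0.68 to -0.12, edgeR adjusted p = 1.0) from day 2.5 to day 3, the largest of the 8. Neither passed the adjustment over all genes. With the GC and length offset the Smchd1 values were 0.04, -0.01 and -0.13, so that the first 2 turned direction, and Smc5 was at -0.22. The largest under the offset were Smc3 (-0.38, interval -0.65 to -0.11, edgeR adjusted p = 0.332) and Smc1a (-0.32, -0.57 to -0.07, 0.345) from day 2 to day 2.5, which were not called either.

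Between the genes, levels were compared per length (RPKM, over the summed exons of each gene). The condensin gene Smc4 led in all 8 groups, with group means of 70.7 to 105, followed by Smc3 (50.4 to 76.6), Smc2 (45.9 to 65.6) and Smc1a (32.7 to 43.8). Smc5 (14.8 to 26.7) and Smc6 (12.5 to 21.8) came next, then Smchd1 (4.54 to 9.99), and Lrif1 was the lowest (2.69 to 3.96). The order of the means was the same in every group, but some neighbours overlapped in their libraries. Smc4 and Smc3 did so in wt on day 0, Smc3 and Smc2 on day 2.5 in both genotypes and on day 3 in wt, and Smc5 and Smc6 in wt on day 0 and day 2.5 and in het on day 3.

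The place of Smchd1 in this order rests on the length used. Its exons sum to 19982 bases over 12 annotated transcripts, while its longest transcript has 7052 bases. Per length of the longest transcript, a choice made after seeing the data, Smchd1 was at 12.9 to 28.3 and shared the places 6 and 7 with Smc5 (17.7 to 31.9). Smc6, whose exons sum to 12502 bases against 5603 in its longest transcript, was then at place 5 (27.8 to 48.7). The 4 cohesin and condensin genes and Lrif1 kept their places.

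**Figure D5:**
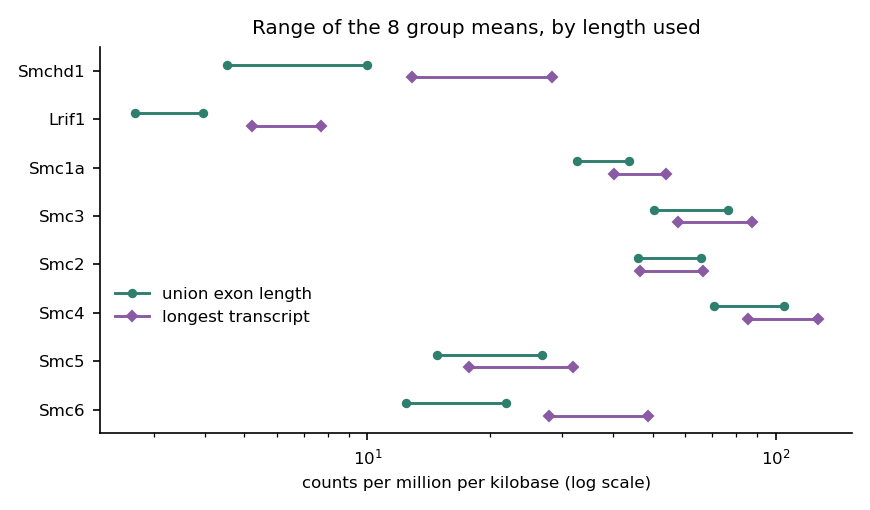
Range of the 8 group means of each gene per length (CPM per kilobase, on a log axis), from the lowest to the highest mean, with summed exon length (green circles) and with the length of the longest transcript (purple diamonds). Smc4 is highest and Lrif1 lowest with both lengths, and Smchd1 and Smc6 shift most between them.

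Other subunits and regulators of the same complexes were counted from lists, and none of them was called between genotypes by the edgeR test on any day or in the summed counts. Other settings were not tabulated for these lists. From day 0 to day 2 the 3 other cohesin core genes split. Stag2, a subunit that binds the ring, rose by 1.24 in wt and 1.22 in het on the log2 scale (edgeR adjusted p of 3.57e-07 and 4.55e-09), from means of 155 to 363 CPM in wt. Rad21, the subunit that closes the ring, fell in het by 0.23 (0.00468). Of 10 loaders and regulators, 1 rose and 3 fell in wt, and 2 rose and 4 fell in het, among them Ctcf, the boundary factor that stops cohesin, at -0.42 and -0.47 (0.00936 and 9.74e-05). Over all genes tested at this step, 22.4% rose and 21.9% fell in wt and 28% and 28.1% in het, with median changes of 0.02 and 0.01, so the counts of loaders and regulators were near that share.

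The meiotic cohesin genes, known from germ cells, were already counted on day 0, at a summed level of 30.6 to 50.9 CPM. All rose on day 2, 4 of 4 in each genotype (list medians 1.82 and 2.06), beside 22.4% of all genes tested in wt and 28% in het. Smc1b, the meiotic relative of Smc1a, went from 21.9 to 59.3 CPM in wt and from 24.9 to 75.1 CPM in het (group means), a log2 change of 1.45 and 1.6 (edgeR adjusted p of 0.000274 and 7.09e-08). It then fell on day 2.5, with log2 changes of -1.83 and -2.42 (3.49e-05 and 4.37e-08). Rec8, the meiotic kleisin, changed by 2.20 and 2.51 on day 2 but was low, at 2.65 CPM in both genotypes on day 0.

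Among the condensin subunits, Ncapg rose on day 2 by 0.81 in wt and 0.78 in het (edgeR adjusted p of 2.96e-05 and 3.68e-08). The condensin I list had 1 of 3 genes rising in wt and 2 of 3 in het, and the condensin II list 2 of 3 and 3 of 3, beside 22.4% and 28% of all genes tested. On day 2.5, 2 of 3 condensin I genes fell in each genotype, and 2 of 3 condensin II genes in wt and 3 of 3 in het, beside 14.5% and 22.9% of all genes tested. Ncapd2 fell, at -0.70 and -0.89 (0.00267 and 1.13e-06), and Smc4 moved the same way. Of the 7 partners of Smc5 and Smc6, at most 3 were called at any step (the het step to day 3, 2 higher and 1 lower, beside 29.8% of all genes tested), and none at the step to day 2.5, beside 29.1% and 44.7%.

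At the step to day 2.5, 2 of the 3 cohesin core genes fell in wt and 3 of 3 in het, beside Smc3. Stag2 changed by -0.91 in wt and -0.98 in het (edgeR adjusted p of 4.66e-05 and 7.92e-06), Rad21 by -0.69 and -0.65 (0.000640 and 3.73e-05) and the loader Nipbl by -0.64 and -0.65 (0.00134 and 1.81e-05). Cell division genes moved at the same step, with 6 of 10 lower and 1 higher in wt and 9 of 10 lower and 1 higher in het. Over all genes tested, 14.5% were lower and 14.6% higher in wt, and 22.9% and 21.8% in het. Among them Top2a, the topoisomerase of dividing cells, changed by -1.0 and -1.13 (2.18e-05 and 4.37e-08). Their part in the changes of Smc3 and Smc4 was not tested. At the step to day 3 all 3 cohesin core genes rose in both genotypes, with medians of 0.46 and 0.35, beside 8.99% of all genes tested in wt and 13.8% in het. The long, GC-poor class was itself at 0.31 and 0.12 at this step.

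The genes whose levels followed Smchd1 most closely were ranked by Pearson's r of log2 CPM among 12456 genes, as a description over libraries that share lines and days. Over all 24 libraries, where r also takes in the genotype difference of Smchd1, the 5 highest were Glul (0.77), Itga5 (0.75), Soat2 (0.72), Ano6 (0.71) and Carmil1 (0.71). Over the 12 wt libraries they were Fnbp1l (0.97), Ptbp3 (0.96), Agps (0.96), Smc4 (0.96) and Esyt2 (0.96), so that Smc4 ranked 4 of all genes, and Smc5 was at 0.89. Over the 12 het libraries Smc4 was at 0.90 (rank 153) and Smc5 at 0.71 (rank 1258). Lrif1 was at 0.38 in wt and -0.33 in het. Smc1a and Smc3, whose proteins share a ring, had r of -0.48 in wt and 0.29 in het. Smc4 and Smc5, of different complexes, had 0.93 in wt and 0.79 in het. All of these values include the shift of long, GC-poor genes with day given above.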

How the data were processed

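Poly(A) RNA-seq counts of 24 libraries were analysed. Per the study's methods and notes, single-end 75-base reads were trimmed with Trim Galore 0.4.4, aligned with HISAT2 2.0.5 to GRCm38.p6 and quantified per gene in SeqMonk, and the authors deposited raw read counts. Which libraries used a stranded kit, and what became of reads shared by overlapping genes, are not given in the sources used here. A pair of log2 RPKM tables and columns of group means were not used. Totals were 7.10 to 20.8 M counts, and intervals cover the spread between the libraries, or summed lines, of a group.

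Counts were fitted with edgeR 4.0.16 in R 4.3.3 by the quasi-likelihood test, with TMM factors and filterByExpr by group (minimum count 10). P-values were adjusted by Benjamini-Hochberg over all genes tested, with a threshold of 0.05 and 95% intervals from the coefficient and its SE. The genotypes were compared day by day and on counts summed per line, successive days within each genotype, and genotype by step in a fit of all 24 libraries. Shares of wt were also tested by an exact permutation test. Wt and het lines with the same number are different lines. Within a genotype the number names the same line on each day, so the line as a block was an alternative. Residuals of the same line on successive days had r of -0.04 to 0.17, above 0.1 in 2 of 18 pairs. Alternatives were DESeq2 1.42.0, its size factors, library totals alone, other filters, a fit of all libraries, and leaving out each line. The GC and length offset and the longest-transcript lengths were chosen after seeing the data. The code was tested on simulated data.

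The genes named are the 8 genes, members of listed complexes and cell types that were called (the endoderm list is named in full, with Gata6 and Foxa2 singled out after their values were seen), and the 5 most like Smchd1 by r among genes averaging 50 counts or more. The genes and lists were chosen with earlier results of these data known, and the lists get counts and medians only. Promoter windows are from RefSeq. P-values of the tests between genotypes measure the spread between lines from separate blastocysts. The step and genotype-by-step fits without the block treat libraries of a line on different days as independent.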

Additional observations from a re-analysis of the deposited data

How the results depend on the processing

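No result changed its direction with a call. Of 1424 alternative values of the log2 fold changes, 1337 stayed on their side of the threshold, 35 were newly called, 52 were no longer called and 0 were reversed, and of 218 alternative counts and percentages 178 stayed within their limits. Of the 8 genes, 1 (Smchd1) in place of 0 was called between genotypes on day 0 and on day 2.5 with no filter, by DESeq2, in a fit of all 24 libraries and with the GC and length offset. With that offset, alone or with the replicate block, the steps to day 3 held 2 calls in place of 4 in wt and 1 in place of 2 in het. Leaving out 1 line gave 0 to 1 calls between genotypes on day 0, day 2 and day 3 and in the summed counts, 1 to 3 at the wt step to day 2.5, 0 to 4 at the wt step to day 3, 3 to 7 at the het step to day 2.5 and 0 to 3 at the het step to day 3. Smchd1 as a percentage of wt then ran from 63.9 to 68.1 on day 0, from 58.1 to 62.6 on day 2, from 63.0 to 70.2 on day 2.5, from 51.1 to 56.6 on day 3 and from 58.3 to 62.5 over all days.

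The replicate block, which pairs libraries of the same line, changed no call of the 8 genes, and moved the count over all genes by more than 1.5 times only at the wt step to day 3 (4687 in place of 2923) and at the genotype-by-step test to day 2.5 (2 in place of 0). Counts over all genes moved more with the filter. With no filter, het against wt gave 369, 384, 87 and 274 genes on the 4 days and 190 in the summed counts, in place of 0, 85, 0, 1 and 1, and the genotype-by-step tests 51, 63 and 34 in place of 0. DESeq2 gave 82, 233, 3, 116 and 145. A fit of all 24 libraries gave 23 genes on day 2 and 15 on day 3, and a mean of at least 50 counts gave 131 on day 2. Leaving out 1 line gave 0 to 68 on day 0, 0 to 211 on day 2, 0 to 93 on day 3 and 0 to 404 in the summed counts, and at the wt step to day 3 it gave 29 genes without line 2 and 988 without line 3. The wt step to day 2.5 gave 2249 without line 2 and 2545 without line 3 in place of 4519, the wt step to day 2 gave 4152 without line 3 in place of 6869, and the het step to day 3 gave 3032, 2974 and 2386 without lines 1, 2 and 3 in place of 4710. The causes were not tested. Depth limits Lrif1 most, with 231 counts in the smallest library.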
